A study of Mus musculus with 6 samples.

Results

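The angiopoietins, their TIE receptors and the better-known angiopoietin-like proteins were followed in abdominal aortas of mice lacking *Prdm16* in smooth muscle. The 8 genes were taken by their symbols from a table of 55426 genes: the angiopoietins *Angpt1*, *Angpt2* and *Angpt4*, the receptors *Tek* and *Tie1*, and the angiopoietin-like genes *Angptl1*, *Angptl2* and *Angptl4*. They were chosen by symbol with their fold changes between these groups already known, so the differences between groups are given as a description, and an adjusted p-value printed for a gene of the family marks only its place among all genes tested.

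RNA was sequenced from 6 abdominal aortas, 3 of *Prdm16*SMKO mice, labelled *Prdm16* knockout, and 3 of control mice, all male and on C57BL/6J. In *Prdm16*SMKO mice both floxed *Prdm16* alleles are cut by Myh11-CreERT2, a tamoxifen-induced recombinase that is driven by the promoter of a smooth muscle myosin and carried on the Y chromosome. The study's controls carried Myh11-CreERT2 too, with wild-type *Prdm16*, and the labels call them only control. Tamoxifen (75 mg/kg/day) was given to male mice by gavage for 5 days at 8 to 10 weeks of age. The paper states that the sequenced aortas came from normally housed mice that had met no pathological stimulus. Mice meant for aneurysm induction were used 2 weeks after tamoxifen. The methods do not give the tamoxifen course or the time of sampling separately for RNA-seq. Cells that never expressed Myh11 kept *Prdm16*, and the labels do not state that each library is a separate mouse, so p-values measure the spread between libraries.

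ANGPT1, secreted by mural and mesenchymal cells, activates the receptor tyrosine kinase TEK (also called TIE2) on endothelium and keeps vessels quiescent. ANGPT2, stored and released by activated endothelial cells, is a weak or context-dependent ligand that can oppose ANGPT1, and ANGPT4 is a further agonist of TEK. TIE1 has no high-affinity angiopoietin ligand of its own and modulates TEK as a co-receptor. The angiopoietin-like proteins share the family's fold but do not bind TEK. ANGPTL4 is a secreted inhibitor of lipoprotein lipase, ANGPTL2 is a secreted factor tied to tissue inflammation, and ANGPTL1 is a secreted protein with anti-angiogenic activity.

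*Angpt4* (ENSMUSG00000027460) was the 1 gene of the family that passed the test, and its promoter window is printed for that reason. The window runs from 250 bases before to 50 bases after the start site that RefSeq gives on GRCm38.p6, on the plus strand of chr2:151910957-151911256. Capitals mark a TATA box (TATAAA) that begins 30 bases before the start site and a GC box (GGGCGG) that begins 187 bases before it, both on the strand shown:
Angpt4 promoter: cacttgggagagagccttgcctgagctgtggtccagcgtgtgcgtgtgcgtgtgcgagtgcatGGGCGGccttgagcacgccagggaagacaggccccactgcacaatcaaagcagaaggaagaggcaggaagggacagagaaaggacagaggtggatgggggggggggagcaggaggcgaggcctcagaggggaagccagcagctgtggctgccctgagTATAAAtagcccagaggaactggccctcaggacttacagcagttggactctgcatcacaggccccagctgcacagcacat
Of 32817 RefSeq promoter windows of the same length, 13.6% held TATAAA and 35.6% held GGGCGG on either strand. The E-box letters CANNTG, which read the same on both strands, occurred 4 times in the *Angpt4* window without overlapping either marked motif, and 72.3% of all windows held at least 1. On either strand the window had no match to the AP-1 letters TGANTCA (7.81% of all windows), the GATA letters AGATAA (11.2%), the forkhead letters GTAAACA (3.65%), the hypoxia response letters ACGTG (19.6%), the ETS letters CCGGAAG (8.86%) or the CArG box of serum response factor (1.63%). Windows were at hand for 5 of the 8 genes, and TATAAA was in none of the other 4, those of *Tek*, *Tie1*, *Angptl1* and *Angptl2*.

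Values are TPM (transcript abundances scaled to a fixed total in each library). They are also scaled by transcript length and can be compared between genes. A difference between groups is on the log2(TPM + 0.5) scale, *Prdm16*SMKO minus control, from limma fitted to the 15775 genes averaging 0.5 TPM or more, and a gene was called at a Benjamini-Hochberg adjusted p under 0.05. TPM hold no read counts, so the number of reads behind a value is unknown and no counting interval can be given. Between 20332 and 22100 genes were above 0 in a library, mitochondrial genes held 15.8% to 27.4% of all TPM, and rows of the 45S ribosomal RNA locus held 15.5% to 31.4%. The targeted *Prdm16* was at 30.8 to 36.8 TPM in control and 14.8 to 27.7 TPM in *Prdm16*SMKO libraries, a log2 difference of −0.70 ± 0.23 (SE, n = 3 each, limma, Benjamini-Hochberg adjusted p = 0.376).

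Each of the 8 genes passed the minimum and was detected in every library. In control aorta *Angptl2* was highest at 49.5 ± 10.8 TPM (SD, n = 3), above every other gene of the family in all 3 libraries. *Angpt2* (18.7 ± 1.49 TPM), *Angptl4* (18.7 ± 2.84 TPM) and *Angpt4* (16.4 ± 2.56 TPM) came next, and the ranges of neighbours in that order overlapped. *Tie1* (13.3 ± 0.615 TPM) and *Tek* (10.7 ± 1.67 TPM) followed, also with overlapping ranges. *Angpt1* was far below the receptors at 1.76 ± 0.379 TPM, and *Angptl1*, at 0.507 ± 0.0681 TPM, was the lowest of the 8.

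Of the 8 genes, 1 was called lower and none higher, where 0.171% of all genes tested were called lower, 0.184% higher and 0.355% in either direction. In 6 of the 8 genes the fitted difference was above 0 and in 2 below, with a median of 0.33, while the median over all genes tested was 0.02. The groups did not overlap for 2 genes, *Angpt4* with every *Prdm16*SMKO library below every control and *Angpt2* with every one above. Of all genes tested, 5.76% had every *Prdm16*SMKO library below the controls, 7.02% had every one above and 12.8% were separated in either direction. Since the same contrast chose the genes, nothing is read from these counts.

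**Figure D1:**
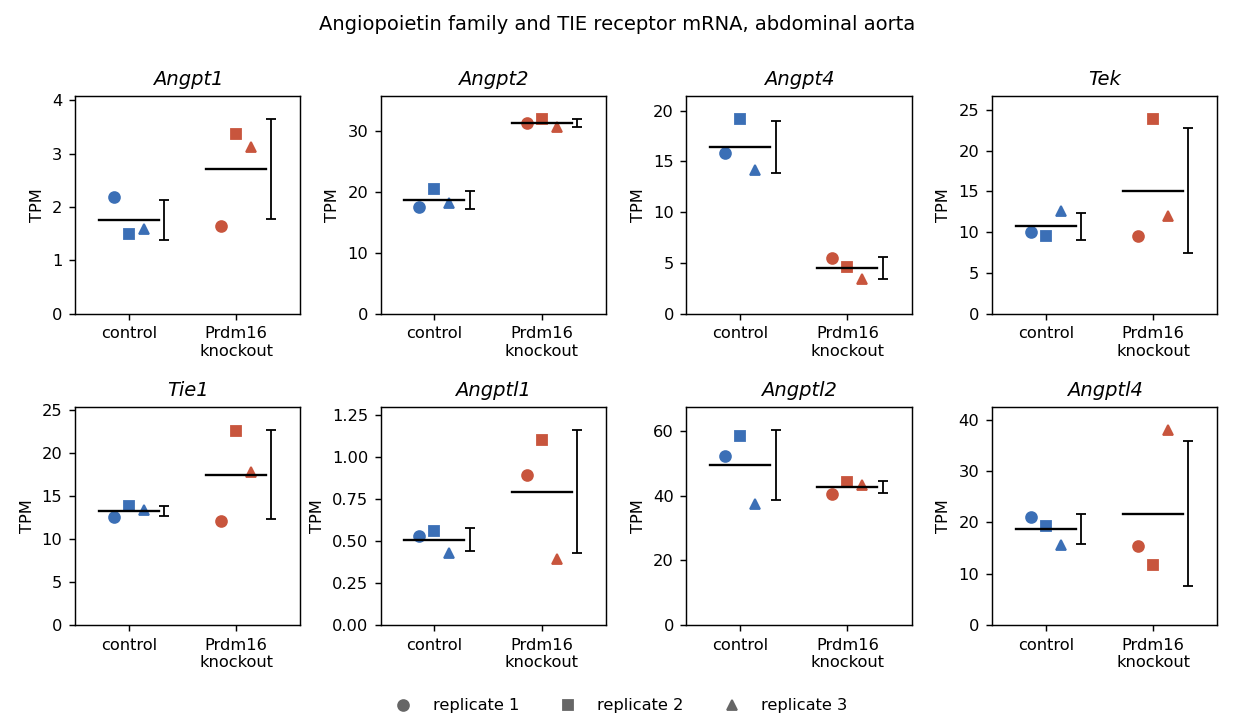
TPM of the 8 genes in each library (points), with the mean and SD of the 3 control and 3 *Prdm16*SMKO libraries (bar and whiskers); every axis starts at 0 and has its own scale. *Angpt4* sits at 14.15 to 19.18 TPM in control and 3.38 to 5.53 TPM in *Prdm16*SMKO libraries, and *Angpt2* at 17.59 to 20.42 and 30.64 to 31.93 TPM.

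Among the TEK ligands, *Angpt4* fell and *Angpt2* stood higher in every *Prdm16*SMKO library. *Angpt4* (chromosome 2 of GRCm38, 151911210 to 151945337, plus strand) was at 15.82, 19.18 and 14.15 TPM in control replicates 1 to 3 and at 5.53, 4.61 and 3.38 TPM in the *Prdm16*SMKO libraries 1 to 3. The highest *Prdm16*SMKO library was below the lowest control. The mean was 16.4 ± 2.56 TPM in control and 4.51 ± 1.08 TPM in *Prdm16*SMKO aorta (SD, n = 3 each). The log2 difference was −1.77 ± 0.21 (SE, 95% interval −2.25 to −1.28), or 3.40-fold lower. Its Benjamini-Hochberg adjusted p in limma was 0.0164, at rank 18 of the 15775 genes. With all libraries kept, the call was lost without a minimum level (adjusted p = 0.11) and with the replicate number as a block (0.106). It also depended on single libraries, and the adjusted p was 0.0668, 0.114 and 0.0651 without control replicate 1, 2 and 3 and 0.056 without *Prdm16*SMKO replicate 2, but 0.017 and 0.0321 without *Prdm16*SMKO replicate 1 and 3. The log2 difference stayed between −1.91 and −1.59 over the 6 fits that left out a library.

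*Angpt2* (ENSMUSG00000031465, chromosome 8, 18690263 to 18741562, minus strand) was at 17.59, 20.42 and 18.21 TPM in the controls and at 31.30, 31.93 and 30.64 TPM in the *Prdm16*SMKO libraries. The groups lay well apart, and the *Prdm16*SMKO libraries lay closer to each other than the controls did. The mean was 18.7 ± 1.49 TPM in control and 31.3 ± 0.645 TPM in *Prdm16*SMKO aorta, a log2 difference of 0.73 ± 0.14 (SE, n = 3 each, 95% interval 0.40 to 1.05), or 1.66-fold higher. It ranked 121 of 15775, and its adjusted p of 0.092 (limma, Benjamini-Hochberg) missed the threshold. *Angpt2* was called in 4 of 19 fits. The adjusted p was 0.0369 with median-of-ratios size factors, 0.0412 with quantile normalization and 0.00735 with array weights. It was 0.0293 without mitochondrial and 45S ribosomal RNA genes (a setting chosen after seeing the data). There was no call without mitochondrial genes alone (0.121), without a trend (0.175), without a minimum level (0.139) or with the replicate number as a block (0.177). Fits that left out a library gave 0.143 to 0.412, also without a call.

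*Angpt1* (ENSMUSG00000022309, chromosome 15, 42424723 to 42676977, minus strand) was at 2.19, 1.49 and 1.59 TPM in the controls and at 1.64, 3.37 and 3.13 TPM in the *Prdm16*SMKO libraries. *Prdm16*SMKO replicate 1 lay within the control range and the other two lay above it. The log2 difference was 0.48 ± 0.29 (SE, n = 3 each, 95% interval −0.19 to 1.14, limma, Benjamini-Hochberg adjusted p = 0.773). An exon of *Angpt1* overlaps *Gm17473* on the opposite strand, and the library kit does not mark strand, so reads of the pair cannot be told apart there.

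The summed level of the 3 ligands differed little between groups while its makeup did. *Angpt1*, *Angpt2* and *Angpt4* together came to 35.6, 41.1 and 34.0 TPM in the controls and 38.5, 39.9 and 37.2 TPM in the *Prdm16*SMKO libraries, with means of 36.9 ± 3.74 and 38.5 ± 1.38 TPM (SD, n = 3 each). *Angpt4* made up 44.4%, 46.7% and 41.7% of that sum in the controls and 14.4%, 11.6% and 9.1% in the *Prdm16*SMKO libraries. *Angpt2* made up 49.4%, 49.7% and 53.6% in the controls and 81.4%, 80.0% and 82.5% in the *Prdm16*SMKO libraries. Thus the 2 ligands held near-equal parts in control aorta, and *Angpt2* held most of the sum in *Prdm16*SMKO aorta. *Angpt1* took 3.63% to 6.15% in control and 4.26% to 8.44% in *Prdm16*SMKO libraries. These shares were computed after the values of the 3 genes had been seen.

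**Figure D2:**
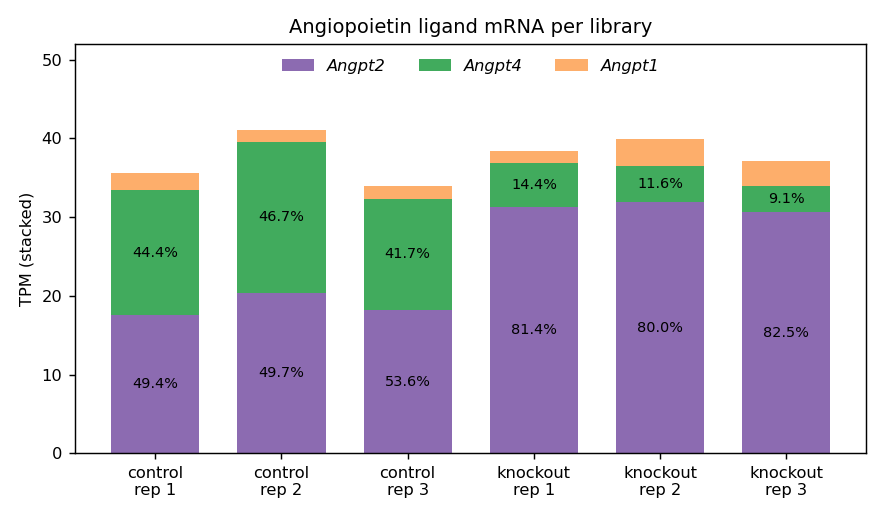
Levels of the 3 TEK ligands stacked by library (TPM, from 0), with the share of the sum held by *Angpt2* and *Angpt4* printed in each bar (percent). The sums lie between 34.0 and 41.1 TPM in all 6 libraries, and the *Angpt4* share is 41.7% to 46.7% in control and 9.1% to 14.4% in *Prdm16*SMKO libraries.

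A log2 ratio of 2 genes within a library does not depend on how TPM were scaled to their total, the pseudocount aside. Ratios other than those to *Angpt1*, of *Tie1* to *Tek* and of the receptors to endothelial markers were added after the values had been seen. The *Angpt4* to *Angpt2* log2 ratio was −0.15, −0.09 and −0.35 in the controls and −2.40, −2.67 and −3.00 in the *Prdm16*SMKO libraries. The group means were −0.20 ± 0.14 and −2.69 ± 0.30 (SD, n = 3 each), a difference of −2.49. By construction this is, up to rounding, the *Angpt4* difference minus the *Angpt2* difference. Against *Angpt1*, the *Angpt4* log2 ratio was 2.91 ± 0.36 in control and 0.66 ± 0.74 in *Prdm16*SMKO aorta, a difference of −2.24. The *Angpt2* to *Angpt1* log2 ratio, 3.10 ± 0.33 in control and 3.35 ± 0.47 in *Prdm16*SMKO aorta, differed by 0.25, less than either SD.

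Neither receptor was called, and both were highest in *Prdm16*SMKO replicate 2 and lowest in *Prdm16*SMKO replicate 1. *Tek* (ENSMUSG00000006386, chromosome 4, 94739289 to 94874976, plus strand) was at 10.01, 9.57 and 12.66 TPM in the controls and at 9.49, 23.88 and 12 TPM in the *Prdm16*SMKO libraries. *Prdm16*SMKO replicate 2 was above every other library, and replicates 1 and 3 lay below the highest control. The log2 difference of *Tek* was 0.38 ± 0.31 (SE, n = 3 each, 95% interval −0.33 to 1.08, limma, Benjamini-Hochberg adjusted p = 0.862), and it was 0 without *Prdm16*SMKO replicate 2.

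*Tie1* (ENSMUSG00000033191, chromosome 4, 118471191 to 118490061, minus strand) was at 12.62, 13.82 and 13.45 TPM in the controls and at 12.17, 22.55 and 17.81 TPM in the *Prdm16*SMKO libraries. Here replicates 2 and 3 lay above the controls and replicate 1 below them. The log2 difference of *Tie1* was 0.34 ± 0.22 (SE, n = 3 each, 95% interval −0.16 to 0.85, limma, Benjamini-Hochberg adjusted p = 0.795), and it was 0.14 without *Prdm16*SMKO replicate 2 and 0.58 without replicate 1. The *Tie1* to *Tek* log2 ratio was 0.30 ± 0.21 in control and 0.27 ± 0.32 in *Prdm16*SMKO aorta (SD, n = 3 each), a difference of −0.03. Both receptor genes are on the chromosome of *Prdm16*, 59.4 Mb (*Tek*) and 35.8 Mb (*Tie1*) from it.

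The angiopoietin-like genes overlapped between groups. *Angptl2* (ENSMUSG00000004105, chromosome 2, 33216069 to 33247717, plus strand) was at 52.39, 58.61 and 37.57 TPM in the controls and at 40.66, 44.19 and 43.40 TPM in the *Prdm16*SMKO libraries. All 3 *Prdm16*SMKO values fell inside the control range, and the log2 difference was −0.19 ± 0.19 (SE, n = 3 each, 95% interval −0.61 to 0.23, limma, Benjamini-Hochberg adjusted p = 0.901). *Angptl4* (ENSMUSG00000002289, chromosome 17, 33773750 to 33781830, minus strand) was at 21.12, 19.33 and 15.55 TPM in the controls and at 15.42, 11.62 and 37.93 TPM in the *Prdm16*SMKO libraries.

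*Prdm16*SMKO replicate 3 held the highest *Angptl4* value of the 6 and the other two *Prdm16*SMKO libraries held the lowest. The *Angptl4* log2 difference of 0.04 ± 0.38 (SE, n = 3 each, 95% interval −0.82 to 0.90, limma, Benjamini-Hochberg adjusted p = 0.994) became −0.45 without that library. *Angptl1* (ENSMUSG00000033544, chromosome 1, 156838562 to 156861078, plus strand) was at 0.53, 0.56 and 0.43 TPM in the controls and at 0.89, 1.10 and 0.39 TPM in the *Prdm16*SMKO libraries. It was close to the minimum for testing, with *Prdm16*SMKO replicate 3 lowest and the other two *Prdm16*SMKO libraries highest, and its log2 difference was 0.32 ± 0.35 (SE, n = 3 each, 95% interval −0.49 to 1.13, limma, Benjamini-Hochberg adjusted p = 0.916). An exon of *Angptl1* overlaps *Gm37802* on the opposite strand, where reads of the pair cannot be told apart.

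**Figure D3:**
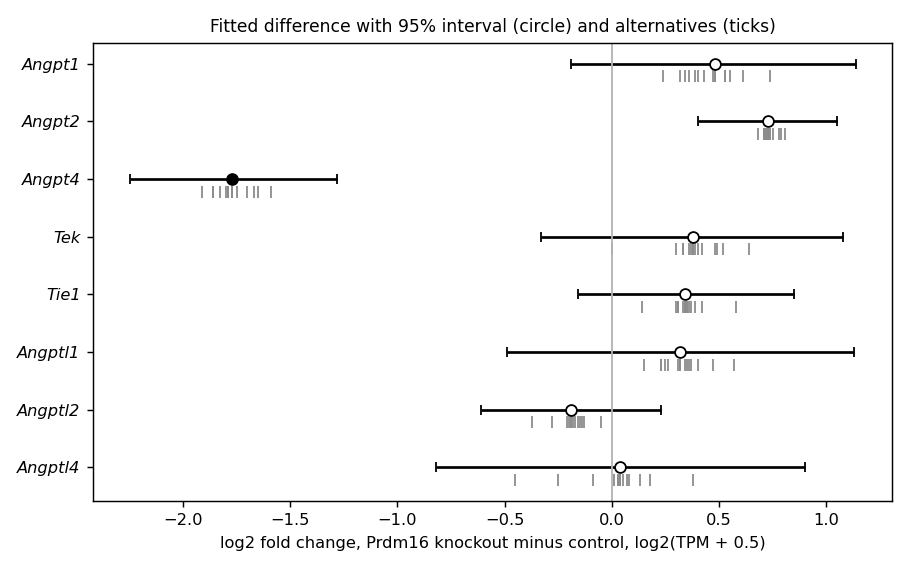
Log2 difference of each gene of the family (*Prdm16*SMKO minus control, log2(TPM + 0.5)) with its 95% interval from limma (circle and bar, filled where the gene was called), with ticks for the values under the other settings tried. The interval of *Angpt4* (−2.25 to −1.28) and that of *Angpt2* (0.40 to 1.05) do not reach 0, and those of the other 6 genes do.

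Cell type markers were read beside the members, because in whole aorta fewer cells of a type and less RNA per cell cannot be told apart. Of all genes tested, 4.88% were higher and 3.85% lower at an unadjusted p under 0.05, and the counts of list genes at that level are to be read beside these shares. *Tek*, *Tie1* and *Angpt2* are known from endothelial cells, and which cells made them in these aortas was not tested. The endothelial list had 0 of 15 markers called by limma (3 higher and 2 lower at an unadjusted p under 0.05), 11 with a difference above 0 and a median of 0.35. Its summed level was 385.9 to 465.7 TPM in control and 429.5, 689.5 and 452.9 TPM in *Prdm16*SMKO replicates 1 to 3, highest in the library with the highest *Tek* and *Tie1*. Its leading markers *Pecam1*, *Egfl7* and *Vwf*, an adhesion molecule, a secreted endothelial factor and von Willebrand factor, had log2 differences of 0.50, −0.09 and 0.90. The list was split in direction. *Erg* (−0.50) and *Cldn5* (−0.54) were lower in every *Prdm16*SMKO library than in every control, and 3 markers were higher in every one. Relative to the mean log2 level of the list, *Tek* was at −0.83 ± 0.20 in control and −0.75 ± 0.39 in *Prdm16*SMKO aorta and *Tie1* at −0.53 ± 0.07 and −0.48 ± 0.18 (SD, n = 3 each). The receptors thus differed from the list by 0.08 and 0.05 between groups, less than their SD. *Angpt2* was at −0.05 ± 0.10 relative to the list in control and 0.39 ± 0.27 in *Prdm16*SMKO aorta, with the lowest *Prdm16*SMKO value (0.11, replicate 2) above the highest control (0.01).

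Of the 9 vascular smooth muscle cell markers, 0 were called by limma (0 higher and 2 lower at an unadjusted p under 0.05), 7 were below 0 and the median was −0.32. Their summed level was 15310 to 25940 TPM in control and 11890 to 18150 TPM in *Prdm16*SMKO libraries, with overlap. The contractile genes *Acta2*, *Tagln* and *Smtn* had log2 differences of −0.47, −0.32 and −0.53. Against the mean log2 level of this list *Angpt4* was at −5.56, −5.77 and −5.54 in the controls and −7.06, −7.12 and −7.21 in the *Prdm16*SMKO libraries. That is −5.63 ± 0.13 and −7.13 ± 0.08 (SD, n = 3 each), a difference of −1.51, and the groups did not overlap. The markers did not all go 1 way, with *Myocd* at 0.13 and *Mylk* at 0.10, and the part of smooth muscle RNA in the *Angpt4* value was not tested. *Angpt2* differed against the list by 0.99.

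**Figure D4:**
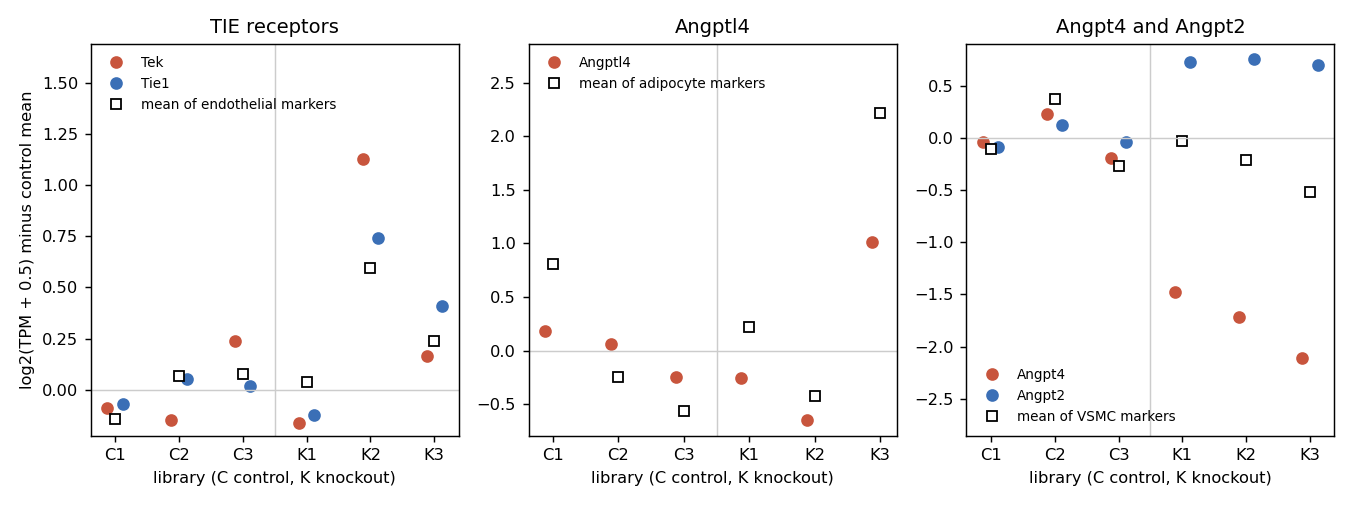
Log2(TPM + 0.5) of 5 genes of the family by library, minus the control mean of each, beside the mean of the marker list named in each panel. In *Prdm16*SMKO replicate 2 *Tek* and *Tie1* stand high with the endothelial markers, in replicate 3 *Angptl4* stands high with the adipocyte markers, and *Angpt4* lies 1.51 lower against the smooth muscle markers.

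*Angptl4*, which fat cells secrete in quantity, stood high in the library with the most adipocyte RNA. The 8 adipocyte markers summed to 1058, 653.6 and 515.4 TPM in the controls and to 620.5, 499.6 and 2664 TPM in *Prdm16*SMKO replicates 1 to 3. Of them 0 were called by limma (2 higher and 0 lower at an unadjusted p under 0.05), with a median difference of 0.91. All were detected in every library except *Ucp1*, listed at 0 in *Prdm16*SMKO replicate 2. *Fabp4*, *Adipoq* and *Lep*, a fatty acid carrier and the adipokines adiponectin and leptin, had log2 differences of 0.24, 1.02 and 1.21. Relative to the mean of these markers *Angptl4* was at −0.31 ± 0.54 in control and −0.95 ± 0.51 in *Prdm16*SMKO aorta (SD, n = 3 each). The *Ucp1* value of 0 enters that mean in *Prdm16*SMKO replicate 2, lowers it and so raises the ratio there (−0.54). The part of adipose RNA in the *Angptl4* values was not tested.

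ANGPT1 is also released from platelets, whose 5 markers summed to 13.1 to 29.15 TPM in control and to 19.24, 102.1 and 24.55 TPM in *Prdm16*SMKO replicates 1 to 3. The sum was highest in replicate 2, where *Angpt1* was highest, but in replicate 3, with *Angpt1* almost as high, it lay within the control range. None of the 5 was called by limma (0 at an unadjusted p under 0.05 in either direction), the median was 0.68, and *Pf4* and *Ppbp*, chemokines of platelet granules, had log2 differences of 0.87 and 1.32. The part of platelet RNA was not tested. For pericytes, which make *Angpt1*, 0 of 7 markers were called (0 higher and 1 lower at an unadjusted p under 0.05), the sums overlapped (2143 to 2454 TPM in control, 2058 to 2936 TPM in *Prdm16*SMKO) and the median was −0.23, with *Rgs5* at 0.09, *Cspg4* at −0.42 and *Higd1b* at 0.63.

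Of 9 fibroblast markers 0 were called (1 higher and 1 lower at an unadjusted p under 0.05), with sums of 1302 to 1457 and 1119 to 1944 TPM and a median of 0.22. *Dcn* was at 0.20, *Col1a1* at −0.54 and *Col14a1* at 0.89. Of 8 macrophage markers 0 were called (6 higher and 0 lower at an unadjusted p under 0.05), with sums of 80.76 to 125.9 TPM in control and 127.0 to 233.6 TPM in *Prdm16*SMKO libraries and a median of 0.76. The sums did not overlap, and the list was led by *Lyz2* and *C1qa* at 0.80 each. Of 5 lymphatic markers read, 4 passed the minimum and 0 were called (0 higher and 1 lower at an unadjusted p under 0.05), with a median of 0.26. *Lyve1* and *Mmrn1* were at 0.22 and 0.30 and *Pdpn* at −1.16. Lymphatic endothelium also uses *Tie1* and *Angpt2*, and these sums, 11.79 to 14.03 TPM in control and 8.59 to 15.88 TPM in *Prdm16*SMKO libraries, overlapped.

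Immediate-early genes, which cells switch on within minutes of handling or stimulation, were the only such list with calls. Of 15 genes 6 were called lower by limma (0 higher and 12 lower at an unadjusted p under 0.05). All 15 were below 0, and the median was −1.29. *Nr4a1* fell by 2.45 on the log2 scale (limma, Benjamini-Hochberg adjusted p = 0.00762), *Arc* by 2.0 (0.0164), *Atf3* by 1.66 (0.0239), *Nr4a2* by 1.40 (0.0386), *Fosb* by 1.36 (0.0414) and *Egr3* by 1.29 (0.0392). *Fos*, at −2.23 (0.357), and *Jun* and *Dusp1*, at −1.15 and −0.98, were not called. The groups overlapped for *Ier2* (−0.30), *Junb* (−0.24) and *Egr2* (−0.10), which lay nearest to 0. Of 19 fits, *Nr4a1* was called in 17, *Arc* and *Atf3* in 14, *Fosb* in 10, *Nr4a2* in 9 and *Egr3* in 7. The list had 0 to 3 calls when a library was left out and 0 without a minimum level. The summed level was 781.4 to 1107 TPM in control and 283.6 to 518.2 TPM in *Prdm16*SMKO libraries, so it separated the groups in the direction of *Angpt4*. Its part in the *Angpt4* value was not tested.

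No gene of the TIE pathway outside the family was called. Of 28 partners and downstream genes of TEK, 27 passed the minimum, 0 were called by limma (1 higher and 0 lower at an unadjusted p under 0.05), and 15 lay above and 12 below 0, with a median of 0.04. The largest differences were those of *Nos3*, the endothelial nitric oxide synthase, at 0.78 ± 0.28 (SE, n = 3 each, limma, Benjamini-Hochberg adjusted p = 0.448), *Ptprb*, the phosphatase that silences TEK, at 0.57 ± 0.31 (0.718), and *Svep1*, a matrix protein that binds TIE1, at 0.54 ± 0.33 (0.764). *Nos3* levels did not overlap, and the kinase gene *Mapk3* differed by 0.28. In 10 VEGF ligands and receptors 0 were called (1 higher and 0 lower at an unadjusted p under 0.05), 9 lay above 0 and the median was 0.20. The coreceptors *Nrp2* and *Nrp1* were at 0.66 and 0.33, higher in every *Prdm16*SMKO library, and *Pgf* and *Flt1*, a ligand and its receptor, were at 0.39 and 0.27.

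Genes that work with the angiopoietin-like proteins gave 0 calls by limma among 10 of 12 that passed the minimum (1 higher and 1 lower at an unadjusted p under 0.05), 5 above and 5 below 0, with a median of 0.10. *Itgb3*, an integrin subunit, was the furthest at −1.02 ± 0.23 (SE, n = 3 each, limma, Benjamini-Hochberg adjusted p = 0.150), lower in every *Prdm16*SMKO library. *Lpl*, the lipase that ANGPTL4 inhibits, was at 0.51 ± 0.51, *Cd36*, a fatty acid transporter, at 0.41, and *Pirb*, a receptor of angiopoietin-like proteins, at 0.76. The nuclear receptor and hypoxia genes that act on *Angptl4*, with their shared targets, gave 0 calls among 16 (3 higher and 0 lower at an unadjusted p under 0.05) and a median of 0.20. In that list *Pparg* was at 1.05, the glucocorticoid target *Tsc22d3* at 0.68 and *Epas1*, which encodes HIF-2α, at 0.44. Of the other angiopoietin-like genes 3 of 4 passed the minimum and 0 were called (0 at an unadjusted p under 0.05 in either direction): *Angptl8* at 0.86 ± 0.68, *Angptl6* at 0.07 ± 0.29 and *Angptl7* at 0.01 ± 0.28, with overlapping groups. The direction of *Angptl6* and *Angptl7* turned under quantile normalization.

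**Figure D5:**
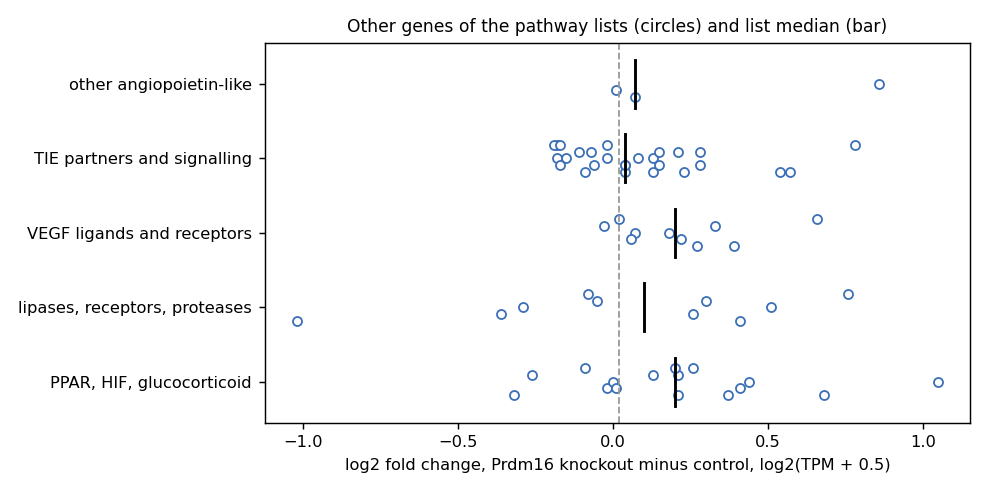
Log2 differences (*Prdm16*SMKO minus control, log2(TPM + 0.5)) of the genes of 5 pathway lists, 1 circle a gene, with the median of each list as a bar and the median of all genes tested (0.02) as a dashed line. List medians run from 0.04 to 0.20, and none of the genes shown was called.

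Genes with the most similar levels over the 6 libraries were sought for *Angpt4*, *Tek* and *Tie1* by the root mean square difference of log2(TPM + 0.5) after each gene was centred on its own mean. Nearest to *Angpt4* were *Fblim1*, a filamin-binding adaptor of cell adhesions (0.144), *Gm6088*, a processed pseudogene at up to 4.05 TPM (0.184), and *Eln*, which encodes elastin (0.200). *Fblim1* was at 811.49, 958.54 and 644.39 TPM in the controls and 278.78, 292.88 and 221.80 TPM in the *Prdm16*SMKO libraries. *Eln* was at 2531.36, 3550.01 and 1987.89 TPM and at 756.65, 941.30 and 596.82 TPM, so both shared with *Angpt4* groups that did not overlap and a maximum in control replicate 2. Among the genes nearest to *Tek* were the endothelial matrix gene *Mmrn2* (0.10) and the neuropeptide receptor gene *Vipr1* (0.112), both highest in *Prdm16*SMKO replicate 2. Nearest to *Tie1* were *Csf1r*, a macrophage receptor (0.0540), *St3gal1*, a sialyltransferase gene (0.0643), and *Igsf10* (0.0759), with the same library highest. The profiles were compared over 6 libraries that share the group difference and their RNA makeup, and likeness is given only as a measure.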

How the data were processed

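RNA-seq libraries of 3 control and 3 *Prdm16* knockout mouse abdominal aortas (poly A selection, a kit that does not mark strand, paired-end reads) were given as a table of TPM that the authors deposited, with 1 column per library and 2 decimals. The submitters' processing notes name bcl2fastq, cutadapt 2.3, FastQC 0.11.8, STAR 2.7.8a, RSEM 1.3.3, MultiQC 1.7 and GRCm38; the table carries TPM per gene, scaled per library, so no count model was used, the depth is unknown, and a gene's value falls where others take more of the total.

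Groups were taken from the sample labels. TPM were tested in R 4.3.3 with limma 3.58.1 on log2(TPM + 0.5), with a trend on expression and a two-sided moderated test, over 15775 genes of mean at least 0.5 TPM; 28867 genes were at 0 in every library. P-values were adjusted by Benjamini-Hochberg over all genes tested, and the fit was tested on simulated data. A fold change on this scale understates the change of low genes. No 2 libraries were identical. The members, the 14 gene lists and the tests were chosen with earlier results of these data known, and no p was adjusted over a list; *Ccl21a*, which has several rows, was left out. Named besides the members were called list genes, the 4 furthest genes of each pathway list, the 2 highest and the furthest of each marker list (mean at least 1 TPM for the furthest), 3 nearest profiles and *Prdm16*; some genes this rule names are not reported here. Alternatives changed the pseudocount, minimum, scaling, variance estimate, weights, replicate block and libraries. Gene positions came from GENCODE on GRCm38 and promoter windows from RefSeq; protein sequences were not used here.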

Additional observations from a re-analysis of the deposited data

How the results depend on the processing

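The fit gave 56 called genes, 1 called gene of the family and 6 called list genes. Without a minimum level these were 10, 0 and 0. Median-of-ratios size factors gave 153 genes (61 higher, 92 lower, against 29 and 27) and 2 of the family, quantile normalization 129 (46 higher, 83 lower) and 2, and leaving out mitochondrial and 45S ribosomal RNA genes, chosen after seeing the data because the table lists that locus under other symbols than *Rn45s*, 123 (55 higher, 68 lower) and 2. Without a trend 33 genes and 2 list genes were called, with robust estimation 112 genes, and with array weights 494 genes, 2 of the family and 18 list genes. Left-out libraries gave 5 to 61 genes (17, 5 and 17 without control replicate 1, 2 and 3, and 28 without *Prdm16* knockout replicate 2), 0 to 1 of the family and 0 to 3 list genes. The cause of these shifts was not tested.

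With the replicate number as a block, 4 genes, 0 of the family and 1 list gene were called, and *Angpt4* was then at an adjusted p of 0.106. Same-numbered libraries deviated from their group means with correlations of −0.131, −0.11 and 0.019, and differently numbered ones with −0.167 to 0.242. With 3 libraries in each group, these correlations cannot show whether same-numbered libraries shared more than a number.

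*Angpt4* was called in 13 of 19 fits (log2 difference −1.91 to −1.59, adjusted p 0.00227 to 0.114, with 0.11 without a minimum), *Angpt2* in 4 (0.68 to 0.81, 0.00735 to 0.412). Over 57 genes and 18 alternatives, 1000 of 1020 values kept their direction. It turned under quantile normalization for *Angptl6* (−0.05) and *Angptl7* (−0.03), and under array weights for *Angptl4* (−0.25), *Angptl8* (−0.11), *Angptl6* (−0.11), *Lpl* (−0.01), *Egfl7* (0.09) and *Fabp4* (−0.37). With single libraries left out it turned for *Angptl4* (−0.45 to 0.38, with −0.09 without control replicate 3 and −0.45 without *Prdm16* knockout replicate 3), *Angptl6* (−0.16 to 0.24), *Angptl7* (−0.29 to 0.28), *Lpl* (−0.18 to 0.89), *Cd36* (−0.09 to 0.71), *Rgs5* (−0.06 to 0.22), *Dcn* (−0.04 to 0.43) and *Fabp4* (−0.51 to 0.71). Under another pseudocount or without a library the group difference was −2.64 to −2.34 for the log2 ratio of *Angpt4* to *Angpt2*, −2.66 to −1.96 for *Angpt4* to *Angpt1*, −1.60 to −1.41 for *Angpt4* to the smooth muscle list and 0.31 to 0.57 for *Angpt2* to the endothelial list, shifts below the SD pooled over both groups. It reached both sides of 0 for *Angpt2* to *Angpt1* (−0.02 to 0.40), *Tie1* to *Tek* (−0.17 to 0.14), *Tek* (−0.14 to 0.23) and *Tie1* (−0.01 to 0.16) to the endothelial list.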
